A study of Homo sapiens with 4 samples.

Results

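Long intergenic noncoding RNAs (lincRNAs) are transcripts that carry no long open reading frame and lie between protein-coding genes. In the gene table of H1299 cells, 435 of 58735 genes were taken as expressed lincRNAs. They carry the biotype lincRNA in the table and were selected on their measured levels: 2 or more of the 4 libraries had to reach 1 FPKM (counts scaled by gene length and by library size), and the counts of all libraries together had to reach 40. Hosts of small nucleolar RNAs were left out by name (the SNHG genes, GAS5, ZFAS1 and DANCR). Of 7629 lincRNA genes in the table, 2972 had any count and 452 passed the FPKM limit. Of these 452, 10 failed the count limit and 7 were left out by name, all of them SNHG genes. At the edges of the limits, AL121894.2 entered with 40 counts and a second highest level of 1.0006 FPKM, while FAM160A1-DT stayed out with 39 counts and AC006206.2 with 0.999 FPKM.

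H1299 cells derive from a human lung carcinoma of the non-small cell type. RNA sequencing covered 2 libraries from a CRISPR/Cas9 knockout of TTC28 (KO) and 2 libraries from wild-type cells (WT), all grown in RPMI1640 with fetal bovine serum. The labels do not say whether the KO cells are a clone or a pool, nor that replicates came from separate cultures, so p-values measure only the spread between these libraries, which may be technical. TTC28 itself had 2.96 and 2.99 FPKM in KO libraries, against 4.88 and 5.44 FPKM in WT libraries, and fell by 0.79 on the log2 scale (SE 0.0764, edgeR adjusted p = 2.78e-06). The mRNA was thus lower but still present, and neither the edited exon nor the protein was measured. TTC28-AS1, the antisense RNA at the same gene, rose by 0.66 (SE 0.110), and without a known strand setting the reads of this overlapping pair may be mixed. In bulk RNA, fewer cells making an RNA and less of it per cell cannot be told apart.

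Library totals were 28885443 and 25120500 counts in KO libraries, against 25808423 and 27043491 in WT libraries. The keratins KRT8 and KRT18 and vimentin (VIM) were at 23.7 FPKM or more in all 4 libraries, CDH1, EPCAM, NKX2-1, SFTPB and SFTPC were at 0.214 FPKM or less, and 12 markers of blood, endothelium and fibroblasts were at 0.450 FPKM or less, with PTPRC, CD3E and LUM at or near 0. Mitochondrially encoded genes took 8.61% and 10.16% of the counts in KO libraries, against 6.07% and 5.87% in WT libraries. With scaling on totals without these genes, 161 members were called in place of 156.

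LincRNAs are usually spliced and capped like messenger RNAs but act, where a function is known, as RNA. Some stay in the nucleus and build nuclear bodies, some bind and titrate proteins or microRNAs in the cytoplasm, some are precursors of microRNAs, and many start beside the promoter of a coding gene and are read in the opposite direction. Most have no known function, and their levels are known to be lower and more cell type specific than those of messenger RNAs.

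The members were weakly expressed as a group. Their mean level over the 4 libraries ran from 0.703 to 70.7 FPKM with a median of 1.97 FPKM, against a median of 7.22 FPKM for the 10795 protein-coding genes tested. Only 22 members reached 10 FPKM, and 224 stayed under 2 FPKM. Their summed counts ran from 40 to 70642 with a median of 269. All members together took 0.409% and 0.412% of the counts in KO libraries, against 0.384% and 0.366% in WT libraries. NEAT1, MALAT1 and NORAD alone held 36.6% and 37.1% of the member counts in KO libraries and 32.4% and 30.8% in WT libraries. The annotated exons of a member spanned a median of 1098 bases, against 5099 bases for tested coding genes, and 150 members had a single exon. By name, 278 members carried clone names, 91 LINC symbols, 31 the name of a neighbouring gene and 35 another symbol.

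KO libraries were compared with WT libraries for every gene. A gene was called where edgeR's quasi-likelihood test gave a Benjamini-Hochberg adjusted p under 0.05 over all 13079 tested genes. Of the 435 members, 156 (35.9%) were called, against a background of 50.3% over all tested genes and 55.0% over tested coding genes. The share among lincRNAs was thus below the background. Of the called members, 83 rose (19.1% of the members, background 25.1%) and 73 fell (16.8%, background 25.2%). Without WT replicate 2 the rises numbered 50 and the falls 55. On a TPM scale, which sets the sum of FPKM equal in every library, 64 members were higher and 111 lower, so that 36.6% of the calls were higher, against 53.2% in the counts. The median log2 fold change of the members was 0.00 in the counts and -0.16 on the TPM scale, where the median of all tested genes moved to -0.16 as well.

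The members' changes were estimated less precisely than those of other genes. The median size of the log2 fold change was 0.45 among members and 0.27 over all tested genes, while the median SE was 0.236 among members and 0.0886 over all tested genes. Changes of at least 2-fold were called for 37 members that rose (8.51%, background 2.95%, and 2.24% of coding genes) and 31 that fell (7.13%, background 2.26%, and 1.78% of coding genes). Of these, 16 rises passed the level limit in KO libraries alone and 21 falls in WT libraries alone, so the counts cannot be read against the background. Without WT replicate 2 the counts were 26 and 20, on the TPM scale 23 and 34, with log2 of FPKM plus 0.5 22 and 12, and with log2 of FPKM plus 1, which shrinks changes at low levels, 12 and 7. KO and WT values did not overlap for 292 members (67.1%, background 75.5%, and 78.7% of coding genes), 152 of them higher and 140 lower in KO libraries. Called shares were larger among members with many counts. Of 109 members with 40 to 109 counts 25.7% were called, of those with 110 to 269 counts 23.9%, of those with 275 to 642 counts 38.0%, and of those with 658 to 70642 counts 56.0%.

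The level limit itself selects for change at its edge. A total of 284 members reached 1 FPKM in all 4 libraries, and of these 52 rose and 39 fell (32.0%), with changes of at least 2-fold in 15 (5.28%) and 5 (1.76%). By contrast, 30 members passed in both KO libraries alone and 35 in both WT libraries alone. These 65 had to differ between the groups to enter in this way, and the 21 rises and 25 falls among them are therefore no support for a change of lincRNAs as a class. The remaining 86 members, which passed in other combinations of libraries, held 10 rises and 9 falls.

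**Figure D1:**
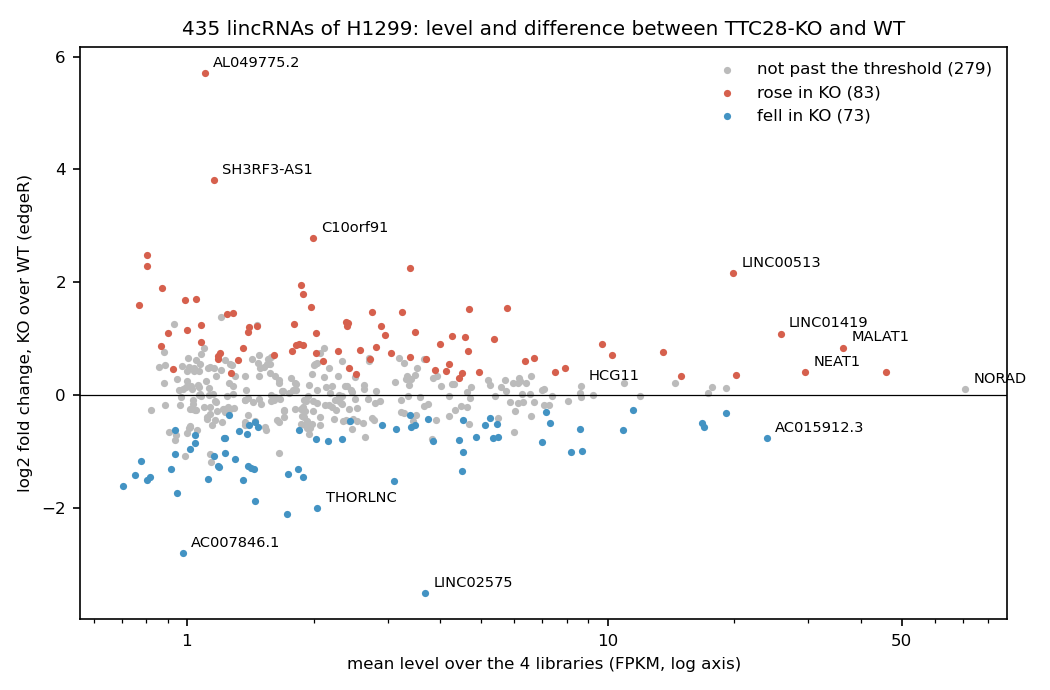
Each point is 1 of the 435 lincRNAs, with its mean level over the 4 libraries in FPKM (log axis) against its log2 fold change, KO over WT, from edgeR. Rises (83) and falls (73) are coloured; large changes sit mostly under 5 FPKM, with LINC00513 (2.16) and LINC01419 (1.09) as exceptions at higher levels.

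At the top of the level scale stood NORAD, a cytoplasmic RNA known to bind Pumilio proteins and to be needed for genome stability. NORAD (ENSG00000260032, hg38 chr20:36045622-36050960, minus strand, a single exon) had 72.6 and 73.9 FPKM in KO libraries, against 64.6 and 71.8 FPKM in WT libraries, and at a log2 fold change of 0.11 ± 0.0668 (SE) it did not pass (edgeR adjusted p = 0.20). Transcripts of other genes hold 56.4% of its 31-base words, those of OVCH1-AS1 38.0%, so that reads can be shared and the level is uncertain. Pumilio proteins bind the element written TGTANATA in DNA letters. It was searched on the sense strand of the longest transcript of every member, where occurrences may overlap. NORAD held 15 copies (2.81 per kilobase), and HCG11, a lincRNA of chromosome 6, held 16 (2.81 per kilobase). The third highest count was 6, in NEAT1, and 396 of 435 members had 0.

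HCG11 (ENSG00000228223, hg38 chr6:26521709-26527404, plus strand) is named after its values were seen. Its transcript shares 11.6% of its 31-base words with NORAD. In 5 pairs of windows around an element, 29 of 30 bases are the same in both transcripts, and 3 of these pairs are given here. Capitals mark the element, and positions count from the 5′ end of the GENCODE release 29 transcript.
NORAD position 761: tggaaggcctgTGTATATAatatgaaaaag
HCG11 position 760: cggaaggcctgTGTATATAatatgaaaaag
NORAD position 1825: aaataccacttTGTAAATAtctttttgcta
HCG11 position 1829: aaataccaattTGTAAATAtctttttgcta
NORAD position 3593: caatgctactgTGTATATAatggaaaactt
HCG11 position 3581: caatactactgTGTATATAatggaaaactt
A match to these letters is a description and not a measured binding site. HCG11 had 9.62 and 8.54 FPKM in KO libraries, against 7.95 and 8.41 FPKM in WT libraries, at 0.15 ± 0.0785, which did not pass (edgeR adjusted p = 0.12). PUM2, which encodes a Pumilio protein, had 12.3 and 12.9 FPKM in KO libraries, against 17.4 and 17.9 FPKM in WT libraries, and fell by 0.48 on the log2 scale (edgeR adjusted p = 3.45e-05).

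MALAT1 and NEAT1, RNAs of nuclear bodies, were both called as rises. MALAT1 (ENSG00000251562, hg38 chr11:65497688-65506516, plus strand), an RNA of nuclear speckles, the stores of splicing factors, had 46.1 and 46.9 FPKM in KO libraries, against 27.4 and 24.8 FPKM in WT libraries. The groups lay well apart, and MALAT1 was 1.79-fold higher (log2 0.84 ± 0.0682, edgeR adjusted p = 6.90e-07). NEAT1 (ENSG00000245532, hg38 chr11:65422774-65445540, plus strand), the scaffold of paraspeckles, had 33.3 and 33.6 FPKM in KO libraries, against 28.0 and 22.7 FPKM in WT libraries. It rose by 0.40 ± 0.0878 on the log2 scale (edgeR adjusted p = 0.0019), a call that was lost on the TPM scale. Without WT replicate 2 the change was 0.25 (edgeR adjusted p = 0.0407), and without WT replicate 1 it was 0.56. FRMD8, the coding gene nearest to NEAT1, rose by 0.36.

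Of 16 tested paraspeckle protein genes, 3 rose and 4 fell, while 9 did not pass, beside 55.0% of all tested coding genes called. On the TPM scale 1 rose and 9 fell. The RNA-binding protein gene CPSF6 (0.55 ± 0.0684) and the chromatin remodeller gene SMARCA4 (0.36 ± 0.0765) rose, and the RNA-binding protein gene HNRNPH3 (-0.30 ± 0.0680) fell. NONO, a core paraspeckle protein needed by NEAT1, had 164 and 158 FPKM in KO libraries, against 155 and 159 FPKM in WT libraries.

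Of the other abundant members, LINC01419, AC092490.1 and LINC01608 rose and AC015912.3 fell. LINC01419 (chromosome 8) had 32.6 and 37.4 FPKM in KO libraries, against 16.4 and 16.6 FPKM in WT libraries, and was 2.12-fold higher (log2 1.09 ± 0.0884, edgeR adjusted p = 6.77e-07). AC092490.1 (chromosome 12) had 54.3 and 49.7 FPKM in KO libraries, against 39.2 and 39.8 FPKM in WT libraries, and rose by 0.40 ± 0.0643 (0.77 with its local median of -0.37 removed), but 25.9% of its 31-base words occur in other genes. LINC01608 had 24.0 and 21.3 FPKM in KO libraries, against 17.3 and 18.1 FPKM in WT libraries, and rose by 0.36. The LINC01608 call was lost without KO replicate 1, without WT replicate 1, without WT replicate 2, on the TPM scale and with the local median removed. AC009414.2 (0.12), LINC00839 (0.14) and AC026401.3 (0.03) did not pass.

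**Figure D2:**
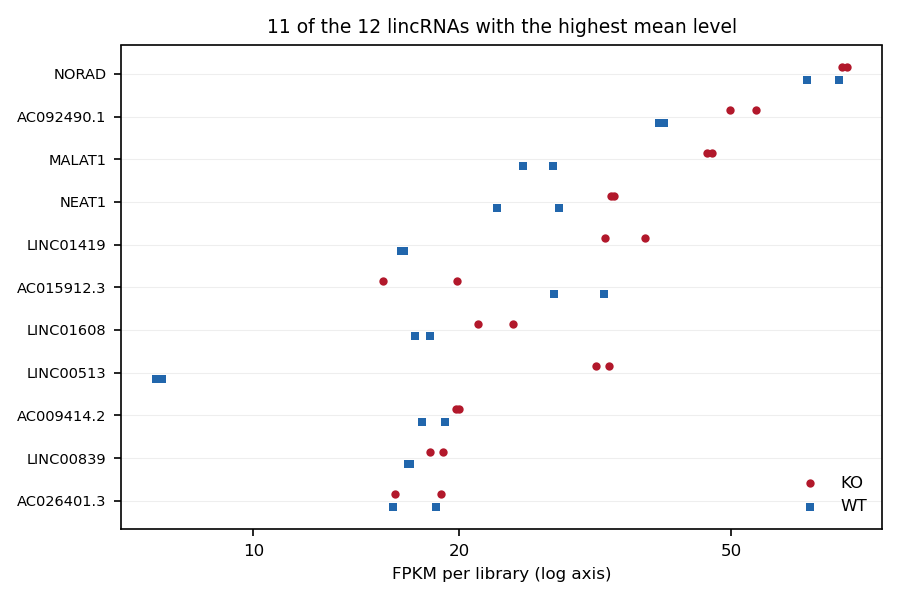
11 of the 12 lincRNAs with the highest mean level, with the FPKM of each KO library (circles) and each WT library (squares) on a log axis. KO values lie right of WT values for MALAT1, NEAT1, AC092490.1, LINC01419, LINC01608 and LINC00513, and by a small margin for NORAD, AC009414.2 and LINC00839. They lie left of WT values for AC015912.3, and mixed with them for AC026401.3.

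Among the 10 largest rises, LINC00513 alone was also among the 12 highest members. Reported in lupus as an RNA that raises interferon signalling, LINC00513 (ENSG00000233559, hg38 chr7:130853720-130928649, plus strand, 5 exons) had 33.1 and 31.7 FPKM in KO libraries, against 7.20 and 7.36 FPKM in WT libraries. It was 4.46-fold higher (log2 2.16 ± 0.0864, edgeR adjusted p = 1.75e-09), and the median of its 25 tested neighbours on each side (the local median) was 0.00. On the other strand within its body lies a gene that the table names LINC-PINT (ENSG00000226380, hg38 chr7:130876809-130913310, minus strand). This row had 1.44 and 1.56 FPKM in KO libraries, against 0.975 and 0.821 FPKM in WT libraries, and rose by 0.74 ± 0.144 (edgeR adjusted p = 8.28e-04), not past on the TPM scale. Of its exonic bases 30.4% are shared with AC016831.6 on the same strand. A second row named LINC-PINT (ENSG00000231721), which is no lincRNA in the table, had 202 and 213 counts in KO libraries, against 237 and 195 counts in WT libraries. The exons of LINC00513 overlap those of no other gene, so the rises on the 2 strands rest on separate exons.

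The same stretch holds microRNA hairpins of the miR-29 family, known repressors of collagen and other matrix genes: MIR29B1 inside the rising LINC-PINT row on its strand, and MIR29A and MIR29B1 opposite to LINC00513. In all, 10 members held 13 microRNA genes of the RefSeq table (GRCh38.p14) within their bodies. The mature sequences below are shown because they group the hosts by the seed, bases 2 to 8, which is in capitals and sets the targets. Within each of the first 3 groups the seed is shared.
hsa-miR-29a-3p: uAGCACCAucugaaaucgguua
hsa-miR-29b-3p: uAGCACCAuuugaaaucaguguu
hsa-miR-221-3p: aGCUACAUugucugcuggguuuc
hsa-miR-222-3p: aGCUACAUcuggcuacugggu
hsa-miR-30a-5p: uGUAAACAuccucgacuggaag
hsa-miR-30c-5p: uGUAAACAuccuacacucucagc
hsa-miR-22-3p: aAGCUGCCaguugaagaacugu
hsa-miR-503-5p: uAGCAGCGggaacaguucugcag
hsa-miR-4435: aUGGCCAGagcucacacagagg
The libraries did not measure mature microRNAs, and a host level says nothing of its product.

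Of 4 members named as microRNA hosts, 3 rose and MIR503HG did not pass, beside 19.1% of all members that rose. MIR22HG, host of a microRNA that restrains growth in many tumours, had 8.76 and 8.34 FPKM in KO libraries, against 6.63 and 6.31 FPKM in WT libraries, and rose by 0.41 ± 0.0885 (edgeR adjusted p = 0.0019). MIR222HG, host of miR-221 and miR-222, which repress cell cycle inhibitors, had 2.38 and 3.28 FPKM in KO libraries, against 2.23 and 1.83 FPKM in WT libraries. It rose by 0.48 ± 0.179 (edgeR adjusted p = 0.0407), a call lost under 8 of 17 other settings, among them without KO replicate 2 and without WT replicate 2. MIR503HG had 1.92 and 1.76 FPKM in KO libraries, against 2.09 and 1.84 FPKM in WT libraries (log2 -0.09), and the groups overlapped. LINC00472, whose body holds the miR-30a and miR-30c hairpins and which was picked here after its values were seen, had 1.37 and 1.58 FPKM in KO libraries, against 1.77 and 2.10 FPKM in WT libraries, and did not pass (log2 -0.40, edgeR adjusted p = 0.058).

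MIR4435-2HG and CYTOR, both on chromosome 2, share part of their sequence, and each hosts a miR-4435 hairpin. MIR4435-2HG had 3.29 and 3.33 FPKM in KO libraries, against 2.06 and 2.23 FPKM in WT libraries, and rose by 0.63 ± 0.0815 (edgeR adjusted p = 3.38e-05), and by 0.22 with its local median of 0.41 removed. CYTOR had 1.21 and 1.04 FPKM in KO libraries, against 1.27 and 1.18 FPKM in WT libraries, and did not pass at -0.12. Since 53.9% of the 31-base words of MIR4435-2HG occur in CYTOR, both levels are uncertain. Overlapping MIR4435-2HG on the other strand, the proapoptotic gene BCL2L11 (BIM) had 3.73 and 4.31 FPKM in KO libraries, against 1.87 and 1.94 FPKM in WT libraries, and rose by 1.08. The 2 genes share 5.55% of the exonic bases of MIR4435-2HG.

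Of 10 tested microRNA processing genes, 4 rose, 2 fell and 4 did not pass, a share near the 55.0% of all tested coding genes. Rises numbered 1 without WT replicate 1, 1 without WT replicate 2, 2 without KO replicate 2, 2 with DESeq2, 1 with total-count scaling and 0 on the TPM scale. AGO1, an Argonaute, fell by 0.52 on the log2 scale, and DROSHA, the nuclear RNase of hairpin release, fell by 0.40. The Dicer partner genes PRKRA (0.35) and TARBP2 (0.22) rose.

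Among members with a described role as decoys or in genome stability, 1 rose (MIR4435-2HG), 3 fell and 3 did not pass, NORAD and CYTOR among these. Over all members 19.1% rose and 16.8% fell. CRNDE, an RNA raised in many tumours, had 2.43 and 2.31 FPKM in KO libraries, against 3.42 and 3.46 FPKM in WT libraries, and fell by 0.53 ± 0.0975 (edgeR adjusted p = 5.35e-04). The CRNDE call was lost with the local median of -0.28 removed. LINC00662 had 2.77 and 2.90 FPKM in KO libraries, against 3.98 and 4.26 FPKM in WT libraries, and fell by 0.54 ± 0.0848 (edgeR adjusted p = 1.66e-04), and by 0.86 with its local median of 0.32 removed. LINC00665 had 10.5 and 10.5 FPKM in KO libraries, against 12.2 and 12.97 FPKM in WT libraries, and fell by 0.26, not past without WT replicate 2. LINC00467 had 2.11 and 2.34 FPKM in KO libraries, against 2.57 and 2.72 FPKM in WT libraries, and did not pass at -0.25, but did with total-count scaling and on the TPM scale.

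Beside MYC, the transcription factor gene of growth, lies PVT1 (ENSG00000249859, hg38 chr8:127794533-128101253, plus strand), a lincRNA often amplified with it. PVT1 had 4.17 and 4.16 FPKM in KO libraries, against 4.57 and 3.86 FPKM in WT libraries (log2 -0.02 ± 0.0987, edgeR adjusted p = 0.91), and the groups overlapped. MYC itself, 53099 bases away on the same strand, fell by 1.26 on the log2 scale (SE 0.0644). Of the other MYC-linked names looked up, CASC8, CASC11 and PCAT1 had 15 to 19 counts over all libraries and MYCNOS had 0.

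Of 4 members linked to lung and other cancers, 2 rose and 2 did not pass, beside 19.1% of all members that rose. CASC9 had 2.68 and 2.11 FPKM in KO libraries, against 1.58 and 0.997 FPKM in WT libraries, and rose by 0.90 ± 0.254 (edgeR adjusted p = 0.0093), not past without KO replicate 1 or without WT replicate 2. LINC00973 had 15.4 and 17.9 FPKM in KO libraries, against 12.7 and 13.7 FPKM in WT libraries, and rose by 0.34, a call lost without KO replicate 2, without WT replicate 1, without WT replicate 2 and under 3 other settings. LINC01234 (0.17) and LINC01503 (0.52) did not pass; LINC01234 did without KO replicate 2. UCA1, BLACAT1, CASC15, LINC00958 and LINC-ROR, lincRNA names often studied in tumours, had 0 or 1 count over the 4 libraries. TP53TG1 had 3.02 and 2.80 FPKM in KO libraries, against 4.33 and 2.98 FPKM in WT libraries, and did not pass (log2 -0.32). PURPL, PANDAR and PINCR had 0 counts.

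The largest rises were mostly of RNAs that were low in WT libraries. AL049775.2 (ENSG00000258902, hg38 chr14:85362457-85516934, minus strand) had 38 and 26 counts in KO libraries, against 0 and 1 in WT libraries, which scaled to library size is a ratio of 65.4 (interval 11.3 to 2621 at 95%, Clopper-Pearson, for counting error only; edgeR adjusted p = 4.04e-05). C10orf91, a lincRNA despite its coding-style name, had 3.01 and 3.97 FPKM in KO libraries, against 0.430 and 0.576 FPKM in WT libraries, and was 6.89-fold higher, and its neighbour PWWP2B, 26464 bases away, rose by 0.84. LINC01139 had 1.24 and 1.48 FPKM in KO libraries, against 0.282 and 0.203 FPKM in WT libraries, and was 5.61-fold higher (edgeR adjusted p = 8.84e-07). These RNAs were under 1 FPKM in WT libraries and at 1 FPKM or more in KO libraries. C10orf91, LINC01139 and AL049775.2 thus entered the list through their KO libraries alone.

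SFTA1P, a transcribed relative of a surfactant-associated gene, had 5.92 and 5.32 FPKM in KO libraries, against 0.973 and 1.38 FPKM in WT libraries, and was 4.76-fold higher (edgeR adjusted p = 7.41e-06). LINC02057 was 4.90-fold and AC015819.1 3.72-fold higher, both listed through KO libraries alone. HIF1A-AS2, antisense to the hypoxia factor gene HIF1A, had 2.49 and 3.38 FPKM in KO libraries, against 0.573 and 1.10 FPKM in WT libraries, and was 3.45-fold higher while HIF1A rose by 0.17. AC011450.1 was 3.87-fold higher, but 21.5% of its exonic bases overlap CD37, a leukocyte tetraspanin gene on the other strand that rose by 1.48, and whose reads are whose cannot be told apart. The exons of the other RNAs named among the largest rises overlapped another gene by at most 2.16% (LINC01139).

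The largest falls were of RNAs under 1 FPKM in both KO libraries, apart from LINC00638. LINC02575 (ENSG00000228709, hg38 chr21:44485577-44490288, plus strand) had 0.629 and 0.539 FPKM in KO libraries, against 6.36 and 7.21 FPKM in WT libraries, and was 11.5-fold lower (log2 -3.52 ± 0.246, edgeR adjusted p = 1.77e-07), far beyond its local median of -0.48. AC007846.1 had 9 and 14 counts in KO libraries, against 68 and 99 in WT libraries, and was 6.99-fold lower (edgeR adjusted p = 2.02e-05), with 11.6% of its exonic bases shared with AC007846.2. THORLNC, an RNA normally of the testis that binds the messenger RNA binding protein IGF2BP1, had 0.908 and 0.709 FPKM in KO libraries, against 3.03 and 3.52 FPKM in WT libraries. THORLNC was 4.02-fold lower (edgeR adjusted p = 2.80e-06) although its region was slightly up, at a local median of 0.27.

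LINC00638 was the member of this group that stayed over 1 FPKM everywhere, with 1.70 and 1.48 FPKM in KO libraries, against 4.47 and 4.77 FPKM in WT libraries (2.89-fold lower, edgeR adjusted p = 2.11e-06). AC009093.4 (4.33-fold), AC084346.1 (3.70-fold), LINC01816 (3.36-fold), AP003501.3 (2.86-fold) and AC005696.4 (2.86-fold) were lower too. AC008915.2 was 3.06-fold lower with 35.3% of its exonic bases over COG7 on the other strand, which did not pass (0.24), and its call was lost without KO replicate 1 or without WT replicate 2. Apart from LINC00638, all 10 of the largest falls were listed through their WT libraries alone.

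**Figure D3:**
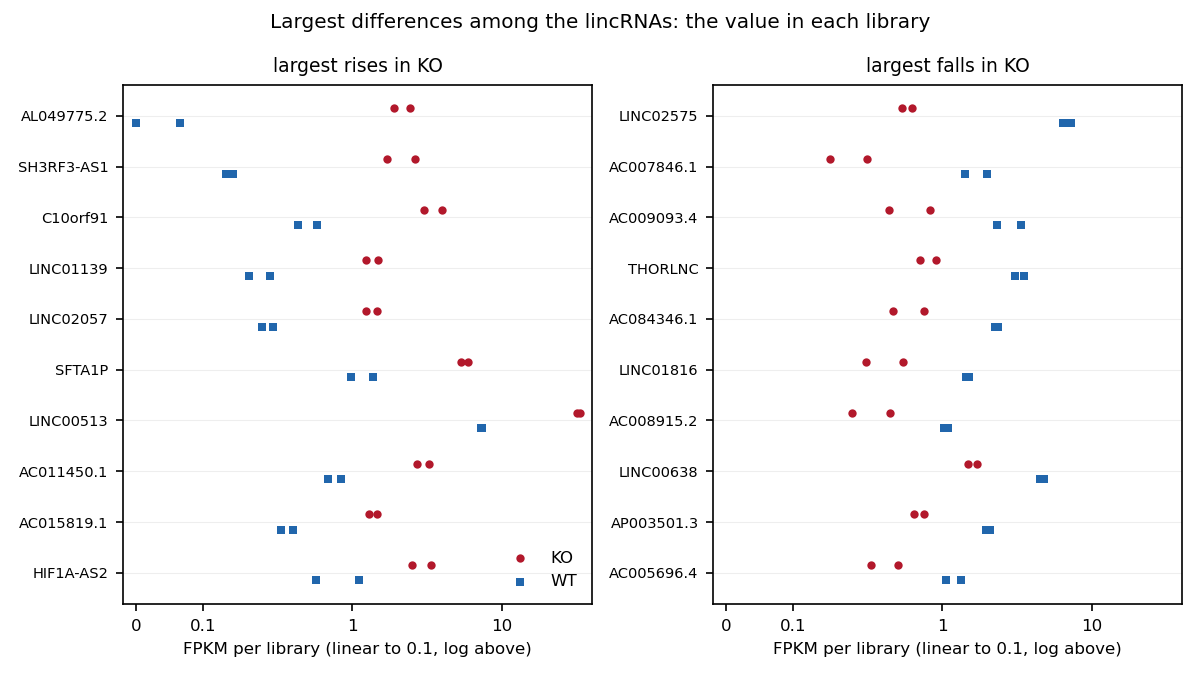
The 10 largest rises (left) and 10 largest falls (right) among called lincRNAs, with the FPKM of each KO library (circles) and each WT library (squares); the axis is linear up to 0.1 FPKM and logarithmic above. No KO value overlaps a WT value of the same RNA, and AL049775.2 is at 0 in WT replicate 1.

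Members were compared with the coding gene nearest to them. The nearest coding gene lay a median of 2755 bases away and was tested for 331 members, which made 305 distinct genes. It lay on the same strand for 156 members, divergent (starts facing away from each other) for 153, convergent for 43 and overlapping for 83. Of the 305 genes, 177 (96 rises and 81 falls) were called, near the 55.0% of all tested coding genes. Rises and falls numbered 78 and 99 with total-count scaling and 41 and 109 on the TPM scale, so which of them were more frequent depends on the scaling. Member and coding gene were both called in 75 pairs. In 55 of these they moved the same way, with 26 pairs of rises and 29 of falls, and in 20 they moved opposite ways. Both-called pairs numbered 46 without WT replicate 1 and 41 without WT replicate 2, with 36 and 34 moving the same way. With the local median removed, 57 pairs were called, 35 the same way and 22 opposite.

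Likeness differed by orientation, as a description across pairs that share libraries and chromosome neighbourhoods. Over 133 divergent pairs, Pearson's r between the log2 fold changes was 0.60 and Spearman's rho 0.43, and with the local median removed these were 0.48 and 0.33. Over 114 same-strand pairs they were 0.22 and 0.23, and 0.06 and 0.06 with the local median removed. Over 24 convergent pairs they were -0.45 and -0.22. Of the pairs called in both, 20 of 24 divergent, 20 of 32 same-strand, 1 of 4 convergent and 14 of 15 overlapping pairs moved the same way. In overlapping pairs reads of shared exons cannot be assigned. Members that passed the level limit in KO libraries alone (30) or in WT libraries alone (35) were not left out here. SH3RF3-AS1, a divergent member, passed through its KO libraries alone. The values by orientation thus rest in part on members that had to differ between the groups to enter. No test of the difference between orientations was made.

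**Figure D4:**
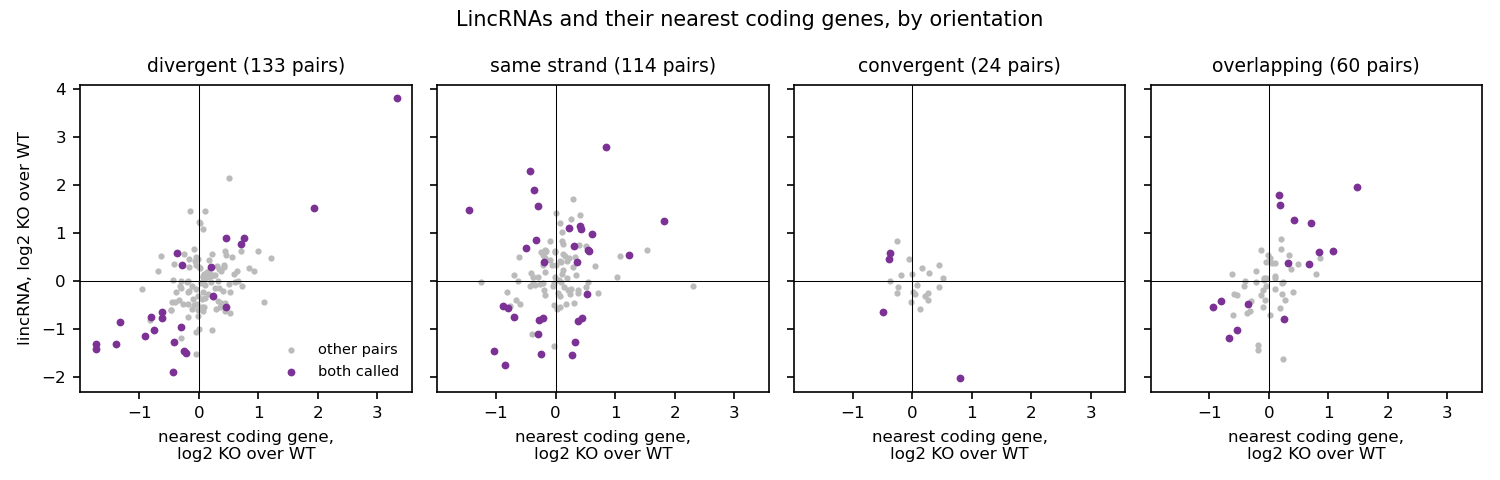
Log2 fold change, KO over WT, of each lincRNA (vertical) against that of its nearest coding gene (horizontal), in panels by orientation. Pairs with both genes called (purple) lie mostly in the lower left and upper right of the divergent and overlapping panels, and in all corners of the same-strand panel.

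Divergent partners within 1000 bases, where both RNAs can start from a shared promoter region, numbered 82 members with 78 tested coding genes. Of the lincRNAs 4 rose and 14 fell (22.0% called). Over all members 35.9% were called, with 19.1% rising and 16.8% falling. Of the coding genes 25 rose and 17 fell (53.8% called, near the 55.0% of all tested coding genes). The lincRNAs numbered 2 and 9 without WT replicate 1, 1 and 12 without WT replicate 2, 2 and 15 without KO replicate 1, 4 and 10 without KO replicate 2, 1 and 9 with DESeq2, and 2 and 24 on the TPM scale. Among the coding genes falls outnumbered rises with total-count scaling (18 rises, 22 falls) and on the TPM scale (12 and 23). Of 22 tested nuclear RNA decay genes, whose products degrade RNAs of this kind among others, 1 rose and 12 fell. Of all tested coding genes 27.2% were higher and 27.8% lower. The falls among these 22 genes numbered 9 with DESeq2, 15 with total-count scaling and 16 on the TPM scale, with 1 rise in each. EXOSC5 (-0.50 ± 0.0667), EXOSC3 (-0.64 ± 0.0878) and EXOSC6 (-0.51 ± 0.0706), subunits of the RNA exosome, fell, and ZFC3H1, which links polyadenylated nuclear RNA to it, rose by 1.12 ± 0.0720 (edgeR adjusted p = 8.43e-08). ZFC3H1 had 8.74 and 9.52 FPKM in KO libraries, against 4.23 and 4.20 FPKM in WT libraries.

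In 11 divergent pairs within 1000 bases both genes were called, and 9 of these moved the same way. Over all 78 tested pairs of this kind, called or not, 44 (56.4%) had the same sign, beside 60.1% of all pairs. Among the 11, the largest change was that of SH3RF3-AS1 and SH3RF3, a ubiquitin ligase gene 418 bases away. SH3RF3-AS1 (ENSG00000259863, hg38 chr2:109127327-109128930, minus strand) had 1.70 and 2.63 FPKM in KO libraries, against 0.143 and 0.160 FPKM in WT libraries, and rose by 3.80 ± 0.380 (edgeR adjusted p = 3.74e-06). SH3RF3 had 3.48 and 2.72 FPKM in KO libraries, against 0.322 and 0.297 FPKM in WT libraries, and rose by 3.33 ± 0.170. Both RNAs were over 1 FPKM in KO libraries and near absent from WT libraries, so SH3RF3-AS1 entered the list through its KO libraries alone. AL133215.2 (0.89) and KAZALD1 (0.77), a secreted protein gene, also rose together, although the AL133215.2 call was lost without WT replicate 2 and with DESeq2. Slightly farther apart, at 1201 bases, LINC01896 rose by 1.52 ± 0.155 with SALL3, a zinc finger gene that rose by 1.94 (a pair picked after its values were seen). LINC01896 had 7.02 and 6.88 FPKM in KO libraries, against 2.78 and 2.08 FPKM in WT libraries.

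Falls were shared on chromosome 2 around ODC1, which makes the key enzyme of polyamine synthesis. AC007249.2 (hg38 chr2:10448694-10451327, plus strand) lies 190 bases from ODC1 and had 0.880 and 1.03 FPKM in KO libraries, against 2.44 and 2.62 FPKM in WT libraries, and fell by 1.41 ± 0.211 (edgeR adjusted p = 1.14e-04). ODC1 fell by 1.74 ± 0.0660, and AC007249.1, a further lincRNA 3815 bases from ODC1, fell by 1.31 ± 0.464. RN7SL832P, 357 bases from the nucleolar protein gene NOL10, fell by 1.31 ± 0.292 beside a fall of 1.39 for NOL10. The whole region was lower, with a local median of -0.68, and with it removed RN7SL832P lost its call while AC007249.2 kept it at -0.72. AC007249.1, which the naming rule does not pick, was not followed with the local median removed.

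Opposite moves were seen for YTHDF3-AS1, which fell by 0.54 while YTHDF3, a reader of methylated adenosine in RNA, rose by 0.46, and for SCAMP1-AS1, which fell by 0.30 while SCAMP1, a vesicle membrane protein gene, rose by 0.24. These lincRNA calls were weak. That of YTHDF3-AS1 was lost without each of KO replicate 1, KO replicate 2, WT replicate 1 and WT replicate 2, and that of SCAMP1-AS1 without KO replicate 2, without WT replicate 1 and without WT replicate 2. With DESeq2 both calls were lost, and that of SCAMP1-AS1 also with the 5 FPKM filter and with limma on log2 FPKM. AL133153.2 fell by 1.45 beside CCDC88C (-0.25), on 12 and 4 counts in KO libraries against 27 and 18 in WT libraries, and was at -2.32 without KO replicate 1 and not past without KO replicate 2, without WT replicate 1 or with DESeq2. LINC01547 fell by 1.02 and FAM207A, a ribosome biogenesis gene, by 0.76, on chromosome 21 with a local median of -0.46, without which LINC01547 was at -0.57.

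**Figure D5:**
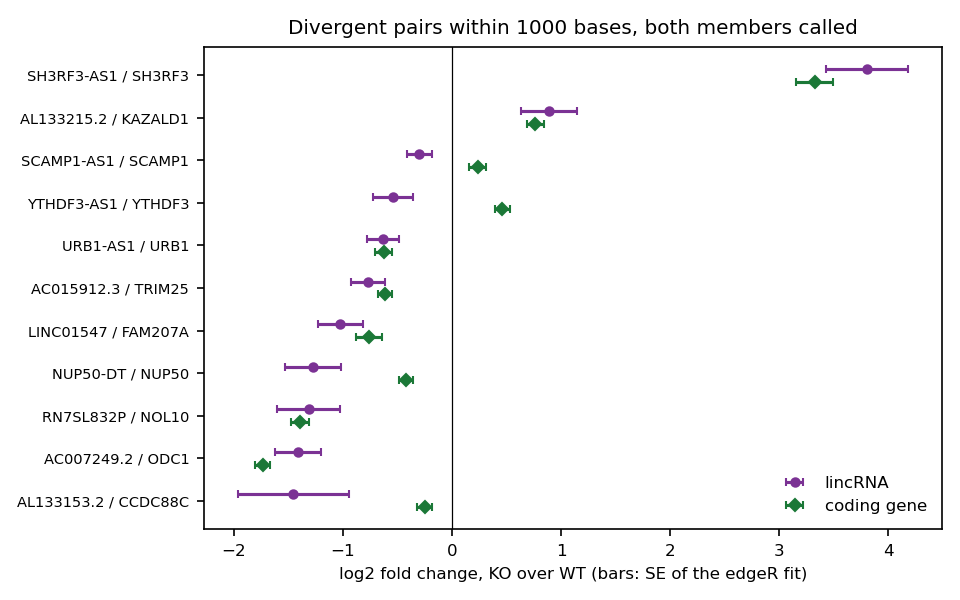
Log2 fold change, KO over WT, of the lincRNA (circles) and the coding gene (diamonds) in the 11 divergent pairs within 1000 bases in which both were called, with the SE of the edgeR fit as bars. SH3RF3-AS1 and SH3RF3 lie far to the right, 8 pairs lie to the left or right together, and YTHDF3 and SCAMP1 lie right of 0 while their lincRNAs lie left of it.

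For 4 of these 11 pairs the RefSeq promoter window of the coding gene (GRCh38.p14, 250 bases before to 50 after its start) also held the start of the lincRNA. The windows are shown because they hold the bases from which both RNAs of a pair begin. They read 5′ to 3′ on the strand of the coding gene, whose first base is position 251. Capitals mark the stretch from the lincRNA start to the coding start, 138 bases in TRIM25, 145 in NUP50, 119 in URB1 and 111 in SCAMP1.
TRIM25 promoter, chr17:56914000-56914299, minus strand: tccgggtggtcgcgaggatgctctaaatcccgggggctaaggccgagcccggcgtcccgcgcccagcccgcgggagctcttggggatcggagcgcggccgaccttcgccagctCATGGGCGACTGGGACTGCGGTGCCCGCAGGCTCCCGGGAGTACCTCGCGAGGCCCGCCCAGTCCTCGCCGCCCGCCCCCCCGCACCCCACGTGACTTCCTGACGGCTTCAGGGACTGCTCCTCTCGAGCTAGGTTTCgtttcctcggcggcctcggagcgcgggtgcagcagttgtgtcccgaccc
NUP50 promoter, chr22:45163675-45163974, plus strand: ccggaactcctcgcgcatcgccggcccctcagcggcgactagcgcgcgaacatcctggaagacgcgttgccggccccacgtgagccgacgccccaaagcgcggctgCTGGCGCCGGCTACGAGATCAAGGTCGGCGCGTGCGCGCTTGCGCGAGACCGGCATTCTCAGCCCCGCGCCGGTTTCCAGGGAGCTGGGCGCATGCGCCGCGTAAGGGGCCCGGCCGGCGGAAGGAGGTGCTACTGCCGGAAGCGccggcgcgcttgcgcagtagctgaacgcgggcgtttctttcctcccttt
URB1 promoter, chr21:32392963-32393262, minus strand: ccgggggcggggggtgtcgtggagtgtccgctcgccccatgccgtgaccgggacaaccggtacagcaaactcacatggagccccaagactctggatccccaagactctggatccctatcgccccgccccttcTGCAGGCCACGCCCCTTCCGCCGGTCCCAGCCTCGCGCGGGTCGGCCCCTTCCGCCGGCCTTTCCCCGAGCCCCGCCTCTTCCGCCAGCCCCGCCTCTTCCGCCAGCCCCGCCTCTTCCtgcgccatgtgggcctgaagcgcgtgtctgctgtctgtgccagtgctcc
SCAMP1 promoter, chr5:78360367-78360666, plus strand: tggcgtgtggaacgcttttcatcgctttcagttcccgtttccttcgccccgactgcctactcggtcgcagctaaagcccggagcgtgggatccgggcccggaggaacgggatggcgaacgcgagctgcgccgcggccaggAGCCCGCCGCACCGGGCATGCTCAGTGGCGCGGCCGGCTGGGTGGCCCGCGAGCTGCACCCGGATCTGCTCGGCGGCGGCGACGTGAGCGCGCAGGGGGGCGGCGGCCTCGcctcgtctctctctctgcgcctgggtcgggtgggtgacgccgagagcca
CG steps number 37 in the TRIM25 window, 48 in NUP50, 28 in URB1 and 43 in SCAMP1. They were not counted in other windows, so these numbers have no background. The letters CACGTG, the E-box that MYC is known to bind and the same on both strands, occur once in the TRIM25 window (position 202, between the starts) and once in the NUP50 window (position 77, outside them). They occur in 7.23% of the 34943 RefSeq windows of this length, and a match here is a description, not a site.

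In the first 3 of these pairs both RNAs fell. AC015912.3 (ENSG00000274213, hg38 chr17:56914186-56914533, plus strand), the most abundant of them, had 15.5 and 19.9 FPKM in KO libraries, against 32.6 and 27.5 FPKM in WT libraries, and fell by 0.77 ± 0.156 (edgeR adjusted p = 0.0012). TRIM25, a ubiquitin ligase gene of antiviral sensing, had 22.5 and 22.5 FPKM in KO libraries, against 32.9 and 36.1 FPKM in WT libraries, and fell by 0.61. NUP50-DT had 0.745 and 0.633 FPKM in KO libraries, against 2.01 and 1.35 FPKM in WT libraries, and fell by 1.27 ± 0.256, and the nuclear pore gene NUP50 fell by 0.42. URB1-AS1 had 9.80 and 7.24 FPKM in KO libraries, against 13.5 and 13.1 FPKM in WT libraries, and fell by 0.63 ± 0.147, as did the ribosome biogenesis gene URB1. The URB1-AS1 call was lost with its local median of -0.41 removed.

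By chromosome, counts were small and were not tested against each other; over all members 19.1% rose and 16.8% fell. On chromosome 16, 0 of 15 members rose and 7 fell, with CRNDE, AC008915.2 and AC009093.4 among the falls. The falls numbered 4 without KO replicate 1, 4 without WT replicate 2, 4 with DESeq2 and 3 with the local median removed. On chromosome 21, 0 of 6 rose and 3 fell, with 1 rise and 2 falls once the local median was removed and 1 rise and 4 falls with limma on log2 FPKM. On chromosome 10, 6 of 18 rose and 1 fell. On chromosome 4, 5 of 19 rose and 0 fell, but 4 rose and 4 fell on the TPM scale. Chromosomes 16, 21, 10 and 4 were picked out of 23 after their values were seen. Local medians of the called members on chromosome 21 lay between -0.48 and -0.41, so that most tested genes around them, of any biotype, were lower.

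Shared bases are common among lincRNAs. A total of 331 members had no exonic overlap with another gene, 74 had at least 20% of their 31-base words in transcripts of other genes, and 303 were free of both. Of these 303, 59 rose and 52 fell (36.6%). In the authors' deposited table, 89 members had an adjusted p under 0.05, 44 higher and 45 lower in KO cells, and all 89 were among the 156 called here.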

How the data were processed

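RNA was sequenced from 2 KO and 2 WT libraries of H1299 cells, with the Illumina TruSeq RNA kit named in the labels' protocols. The submitters' processing notes name HISAT2 2.0.5 and hg38. Not given in the sources used here are the program that counted reads, its strand handling and its annotation. The authors deposited raw counts per gene and library and FPKM values made from them, per the file headers. Also deposited are the authors' log2 fold change with its p-value, raw and adjusted, from a tool the file headers do not name, and the mean signal per group that they deposited was not used. All gene identifiers and member coordinates equalled those of GENCODE release 29, which gave exons, transcripts and neighbours. Spreadsheet dates among the symbols (27) were restored from a table of gene names.

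The 13079 genes that reached 1 FPKM in 2 or more libraries were tested on counts with edgeR 4.0.16 under R 4.3.3 (quasi-likelihood, TMM factors 0.977 to 1.02, 2-sided, no covariates, Benjamini-Hochberg adjustment over all tested genes, threshold 0.05), with a common biological coefficient of variation of 0.0566. Rises and falls in the text passed this test. With 2 libraries a group, exact permutation reaches p = 0.333 at the lowest and was not used. The local median is that of 25 tested genes on each side. Alternatives were DESeq2 1.42.0, limma 3.58.1 on log2 of FPKM plus 1, 0.5 or 0.1 and of TPM plus 0.5, other scalings and filters, robust shrinkage, a replicate block, removal of the local median and leaving out each library, where a lone library is assumed to vary like the others. A restriction to members without shared exons or words was added after seeing the data. The tools were tested on simulated data.

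Members and lists were chosen with earlier results of these data known. The text names the 12 members with the highest level, the 10 largest rises and 10 largest falls among called members, listed genes, divergent called pairs within 1000 bases and up to 4 genes of each partner list with the smallest p. Of the listed names, LINC00657, LINC00152, CCAT1, LINC00176, LINC00473, LINC01021 and DINO were not matched by name, and TUG1, FTX, JPX, MEG3, MIAT, LINC00511, LUCAT1 and others did not meet the rule by biotype or level. RefSeq promoter windows matched 97 members and 8 of the 11 coding genes of called divergent pairs by symbol. RefSeq and GENCODE supplied the sequences. Some genes that these rules name are not reported here.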

Additional observations from a re-analysis of the deposited data

How the results depend on the processing

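The number of called members (156) lay between 107 (DESeq2) and 175 (limma on log2 TPM) under the fits that kept all members or all but 1, and between 105 and 146 with a library left out. It was 45 of 86 where 5 FPKM was required in 2 libraries, and 91 of 284 for members at 1 FPKM in all libraries, in both cases because fewer members were counted. All 107 members called by DESeq2 were among the 156, and 132 of the 175 on the TPM scale. The median log2 fold change of members (0.00) was 0.0496 for the 86 members at 5 FPKM, -0.0636 with total-count scaling and -0.156 on the TPM scale (all tested genes -0.161). Pairs with both genes called (75) numbered 41 with DESeq2, 16 at 5 FPKM and between 41 and 71 with a library left out. Called nearest coding genes (177) ranged from 137 to 224, and TTC28 stayed lower in every fit that tested it; the filter at 5 FPKM gave no value for it and for most members. Same-numbered libraries did not deviate together (correlation -0.00145), so no pairing was seen. With 2 libraries a group this cannot show that the numbers carry no batch. With a replicate block 168 members, 196 coding genes and 90 pairs were called. Of the 56 members that the naming rule picks (HCG11, LINC00472, LINC01896 and AC007249.1 are outside it and were not followed), 38 kept their side of the threshold under all settings run, 15 lost a call under at least 1, 3 gained a call and 0 reversed. Depth limits the weakest members: with 40 to 109 counts the median SE of a log2 fold change was 0.413, against 0.123 with 658 counts or more.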
